A study of Mus musculus with 4 samples.

Results

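The Sox genes encode transcription factors that bind DNA through a shared high-mobility-group (HMG) box, and 10 of them are described here in cells sorted from the periosteum, the membrane around bone, of mouse femora. They were taken by name from a table of 47643 genes, each name occurred on 1 row, and all 10 were found: Sox9, Sox8 and Sox10 of the SoxE group, Sox5 and Sox6 of SoxD, Sox4 and Sox11 of SoxC, and Sox7, Sox17 and Sox18 of SoxF. Of the 10 genes, 9 had 10 reads or more in at least 2 libraries, and Sox10 did not.

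Mice of the Sox9CreErt2:TdTomato strain carried 1 Sox9CreErt2 allele (Sox9tm1(cre/ERT2)Haak), which places a tamoxifen-inducible Cre recombinase under the Sox9 locus, and 1 Cre-dependent TdTomato reporter allele (Gt(ROSA)26Sortm14(CAG-tdTomato)Hze). All animals, and so both sorted populations, had received tamoxifen, 3 injections of 100 µL at 20 mg/mL given 48 h apart, and intact femora were collected 2 weeks after the end of the injections. Diaphyses were digested with liberase, and cells with and without TdTomato fluorescence were sorted, about 10000 of each, over 2 collections that pooled 18 femora of 9 mice. Each collection gave 1 positive and 1 negative library, 4 in all. The labels give no age. Red cells are those that expressed Sox9 when tamoxifen was given and their descendants, so the label records Sox9 in the past and the RNA was read at harvest. The comparison asks how Sox genes differ between cells with and without the label. Cells without it are not shown to have never expressed Sox9.

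As background, Sox9 is required for cartilage to form, and Sox5 and Sox6, which lack a transactivation domain of their own, work beside it on cartilage enhancers. Sox8 and Sox10 are close relatives of Sox9, and Sox10 is best known for Schwann cells and other derivatives of the neural crest. Sox7, Sox17 and Sox18 act in endothelial cells, where they take part in vessel formation and arterial identity. Sox4 and Sox11 are expressed in many progenitor cells, and Sox4 is needed for B-cell development.

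The 60 bases that code for the start of the HMG box core are shown for each gene, because this is the stretch in which family members are most alike and in which reads could be shared between them. They were read from GENCODE M21 transcripts, which use the mm10 build (GRCm38), run 5′ to 3′ on the coding strand, and cover 20 codons that begin at the arginine of the conserved core. Capitals mark the 25 bases that are the same in all 10 genes.
Sox9: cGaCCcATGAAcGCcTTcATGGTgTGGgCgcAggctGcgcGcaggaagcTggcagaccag
Sox8: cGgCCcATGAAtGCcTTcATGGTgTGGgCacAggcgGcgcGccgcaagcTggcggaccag
Sox10: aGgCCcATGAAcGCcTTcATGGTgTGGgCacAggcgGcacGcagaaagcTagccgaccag
Sox5: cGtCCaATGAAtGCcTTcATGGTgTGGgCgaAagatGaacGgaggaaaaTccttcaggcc
Sox6: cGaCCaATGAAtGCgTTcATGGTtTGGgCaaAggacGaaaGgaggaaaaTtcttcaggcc
Sox4: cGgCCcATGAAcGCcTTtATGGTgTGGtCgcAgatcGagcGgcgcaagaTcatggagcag
Sox11: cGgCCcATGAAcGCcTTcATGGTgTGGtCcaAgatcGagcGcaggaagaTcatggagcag
Sox7: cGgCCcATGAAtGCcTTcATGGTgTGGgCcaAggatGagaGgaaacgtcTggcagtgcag
Sox17: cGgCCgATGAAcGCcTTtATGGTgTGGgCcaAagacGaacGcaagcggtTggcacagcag
Sox18: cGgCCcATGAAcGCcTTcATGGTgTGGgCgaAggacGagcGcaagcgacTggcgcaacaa

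Each stretch lies within a single coding exon. For SoxE these are chr11:112782903-112782962 on the plus strand in exon 1 of 3 of Sox9, chr17:25570163-25570222 on the minus strand in exon 1 of 3 of Sox8, and chr15:79163342-79163401 on the minus strand in exon 2 of 4 of Sox10. The SoxD stretches are chr6:143841214-143841273 in exon 13 of 15 of Sox5 and chr7:115489703-115489762 in exon 15 of 17 of Sox6, both on the minus strand. Sox4 (chr13:28952782-28952841) and Sox11 (chr12:27342199-27342258), on the minus strand, have 1 exon each. In SoxF they are chr14:63943894-63943953 on the plus strand in exon 1 of 2 of Sox7, chr1:4493140-4493199 on the minus strand in exon 4 of 5 of Sox17, and chr2:181671222-181671281 on the minus strand in exon 1 of 2 of Sox18.

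Over 210 coding bases from the same starting point, Sox4 and Sox11 were 91.0% identical. Pairs within SoxE were 82.4 to 86.2% identical, the SoxD pair 82.4%, and pairs within SoxF 78.1 to 84.3%. The 37 pairs from different groups ranged from 52.9 to 77.6%. The longest run shared exactly by annotated transcripts of 2 of these genes was 48 bases, between Sox4 and Sox11, and the next was 44 bases, between Sox9 and Sox10. Of the 45 pairs, 0 shared a run of 75 bases, the length of a read in this study.

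The deposited table gives results by group and has no column for a single library. Its 4 numbers per gene (both group means, the highest value and the difference of mean logs) fix 4 library values, and for all 10 Sox genes these came out as whole reads to within 0.0040 reads. Depths of 32.0 and 41.6 M reads followed for the TdTomato-positive pair, called P32 and P42 below, and of 17.0 and 74.0 M for the TdTomato-negative pair, called N17 and N74. Which of each pair came from which collection is unknown. Levels below are in RPKM, the reads of a gene per kilobase of its genomic span, introns included, and per M reads of the library, and RPM leaves out the length. For marker genes, only those whose values could be tied to single libraries are given by library. On these, N74 stood apart: for 6 periosteal and skeletal progenitor genes the median stood at 1.32, 0.676, 1.47 and 0.0730 RPKM in P32, P42, N17 and N74, and for 4 osteoblast genes at 3.14, 2.76, 0.773 and 0.0152 RPKM. N74 thus held few transcripts of the stromal cells of the labelled tissue, and the difference of each Sox gene and list is given with and without it, for lists over the genes with determined values. Over all 11713 genes with determined values and at least 10 reads in 2 libraries, the median difference on log2(RPKM + 0.1) was 0.03 with it and 0.06 without it. In bulk samples, fewer cells of a type and less RNA per cell cannot be told apart.

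**Figure D1:**
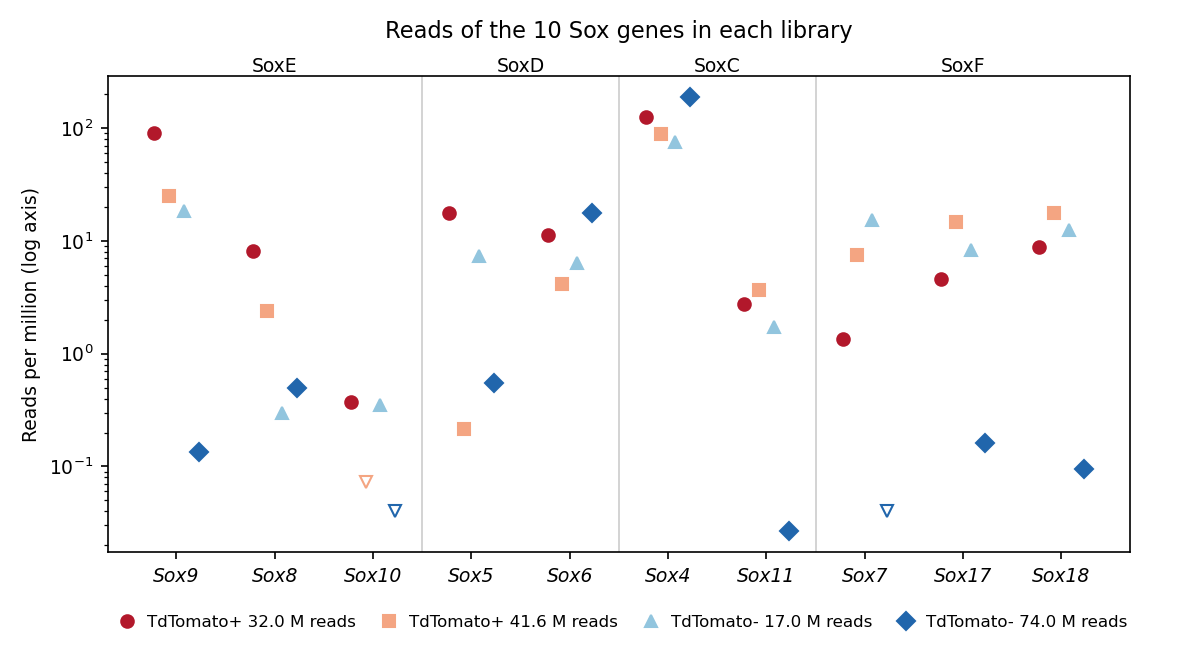
RPM (log axis) of each Sox gene in the 2 TdTomato-positive and 2 TdTomato-negative libraries, shown by depth, with open triangles at the limit of 3 reads where a library had 0. N74 is the lowest for Sox9, Sox11, Sox7, Sox17 and Sox18 and the highest for Sox4 and Sox6.

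None of the 10 genes (0) passed the authors' test at a false discovery rate (FDR) of 0.05, a threshold that 3 of 47643 genes (0.00630%) passed, all of them higher in positive cells. Each Sox gene has an FDR of 1.00 in the authors' deposited table. With an unadjusted p under 0.05 the same table, the authors' deposited table, holds 1 of the 10 among genes higher in positive cells, Sox9, where the share of all genes is 0.598%, and 0 among genes lower, where it is 0.296%. Both shares are over all 47643 genes, of which 20948 had no reads and so could not count towards them. The lists set against these shares below are mostly genes with reads. Against genes with reads alone, each contrast would be smaller. Adjusting the authors' p over the genes with at least 10 reads in 2 libraries left 0 of 9, against 0.0581% of those genes. Limma on log2(RPKM + 1) tested 5 of the 10 and called 0 of them after Benjamini-Hochberg adjustment, with 0 at an unadjusted p below 0.05, and it called 0 of 6860 genes (0%), 724 of them being at an unadjusted p below 0.05. Without N17, which leaves 1 negative library, the limma difference was 3.26 for Sox9 and 2.92 for Sox18. Leaving out N74 instead gave 1.18 for Sox9 and 0.02 for Sox18. Leaving out P32, which leaves 1 positive library, gave 1.39 for Sox9 and 1.9 for Sox18. Without P42, which also leaves 1 positive library, the difference was 3.05 for Sox9 and 1.04 for Sox18. Limma then called 0 of the 5, and 0.0292% of genes as higher and 0.0146% as lower. Limma on log2(RPM + 0.1), which involves no gene length, tested 9 of the 10 and called 0, with 1, Sox8, at an unadjusted p of 0.0457. It too called 0 of 17199 genes (0%), with 1125 at an unadjusted p below 0.05. An exact permutation test of 2 libraries against 2 could not go below 0.333. Mice were pooled, so a p-value here reflects no more than how these libraries vary. The differences below are given as measured, and none of them passed.

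Library by library, 3 of the 9 genes with enough reads were higher in P32 and P42 than in either of N17 and N74: Sox9, Sox8 and Sox11. This pattern was found in 19.4% of the 11713 genes with enough reads whose library values were all determined. None of the 9 (0) showed the opposite pattern, which 18.0% of those genes did. N74 was the lowest library for 5 of the 9, which held for 25.9% of those genes. The median difference of mean logs over all 10 was 0.82 on the log2 scale in the authors' deposited table, and 0.02 over the genes with at least 10 reads in 2 libraries. Without N74 the median of the 10, on log2(RPKM + 0.1), was 0.02, and over the 11713 genes with determined values it was 0.06.

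Sox9 (ENSMUSG00000000567.5, chromosome 11, 112782224 to 112787760, mm10), the gene whose locus drives the label, had 2897 reads in P32 and 1038 in P42. N17 held 312 reads of it and N74 held 10. In levels these are 16.4 and 4.51 RPKM against 3.32 and 0.0244 RPKM, so P32 and P42 were both above N17 and N74. The margin was narrow on one side: P42 exceeded N17 1.36-fold, while P32 exceeded P42 3.63-fold and N17 exceeded N74 136-fold. The exact Poisson intervals of the neighbouring values, 4.24 to 4.79 and 2.96 to 3.71 RPKM at 95%, did not overlap. These intervals cover counting error only, and reads after amplification without molecular identifiers are not independent molecules. In the authors' deposited table the difference of mean logs was 3.70 on the log2 scale (p = 0.0104). On log2(RPKM + 0.1) it came to 1.35 if N74 was left out and to 6.13 if N17 was.

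Sox8 (ENSMUSG00000024176.10, chromosome 17, 25565892 to 25570686) was the member whose groups lay farthest apart library by library. It had 259 and 99 reads in P32 and P42, or 1.69 and 0.496 RPKM. N17 and N74 had 5 and 37 reads, or 0.0614 and 0.104 RPKM. The lower positive value exceeded the higher negative one 4.76-fold, and their Poisson intervals, 0.403 to 0.604 and 0.0734 to 0.144 RPKM, did not overlap. The difference of mean logs in the authors' deposited table was 2.47 on the log2 scale (p = 0.0838), with 1 limma fit at an unadjusted p of 0.0457 and an adjusted p of 0.675. Without N74 it was 2.68 on log2(RPKM + 0.1).

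Sox10 (ENSMUSG00000033006.9, chromosome 15, 79154913 to 79164490) was near the limit of detection. P32 had 12 reads and N17 had 6, or 0.0392 and 0.0369 RPKM. P42 and N74 had 0, which allows levels of up to 0.00753 and 0.00423 RPKM at 3 reads. The difference of mean logs was -0.03 in the authors' deposited table (p = 0.984), and -0.21 on log2(RPKM + 0.1) without N74. Markers of Schwann cells and peripheral glia, the cells for which Sox10 is best known, were low in the same libraries: the 12 with determined values had a median of 0.0480, 0.0374, 0.0656 and 0.00201 RPKM across P32, P42, N17 and N74. Of 14 such genes, 10 had at least 10 reads in 2 libraries, 8 were higher and 6 lower in positive cells by the authors' difference of mean logs, 0 had an unadjusted p below 0.05, and the median was 0.17. Pmp22 and Egr2, the highest of the list, are expressed by other cells too and differed by 2.68 and 0.29 in the authors' deposited table. The 12 genes with determined values had a median difference of 0.05 with all libraries and -0.14 without N74. Gfra3 and Fabp7 had 0 reads in P32 and P42. The part of glia in the Sox10 reads was not tested.

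Cartilage genes were set beside Sox9, and Sox9, Sox5 and Sox6 are known to act on several of them, Col2a1 and Acan among them. Of 22 cartilage genes 21 were higher in positive cells by the authors' difference of mean logs, and the median was 3.45. Matn1, counted as higher, had 7 reads in P32 and 0 in P42, N17 and N74, and differed by 0.09. An unadjusted p below 0.05 was found for 17 in that direction, where the share of all genes is 0.598%. It was found for 0 in the other, where the share is 0.296%. The list was chosen with earlier results of these data known. Col2a1, the main cartilage collagen (FDR 4.28e-05), and Mia, a small secreted chondrocyte protein (FDR 0.0198), were the 2 that passed in the authors' deposited table. Fmod, the proteoglycan fibromodulin and one of the highest of the list, differed by 4.93 there. Of the 11 cartilage genes whose library values were determined, 9 were higher in P32 and P42 than in N17 and N74, as Sox9 was. This pattern was found in 19.4% of all determined genes. Within the positive pair they differed in order: 6 of the 11 were higher in P42, while Sox9 was higher in P32. Chad, which encodes the matrix protein chondroadherin, and Comp, cartilage oligomeric matrix protein, ran as Sox9 did, Chad at 825, 89.3, 31.9 and 0.0762 RPKM and Comp at 199, 43.9, 13.7 and 0.0174 RPKM in P32, P42, N17 and N74. Matn3, a matrilin, was at 0.378 and 4.03 RPKM in P32 and P42, and 3110079O15Rik, which is Snorc, at 3.01 and 16.5 RPKM, opposite to Sox9. The 11 genes summed to 1032, 159, 46.7 and 1.04 RPKM, most of it Chad and Comp except in N74, where Wwp2 was at 0.932 RPKM, and their median was 0.650, 1.19, 0.0758 and 0 RPKM. Their median difference on log2(RPKM + 0.1) was 2.88 with all libraries and 2.46 without N74, when 11 of 11 were higher in positive cells.

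**Figure D2:**
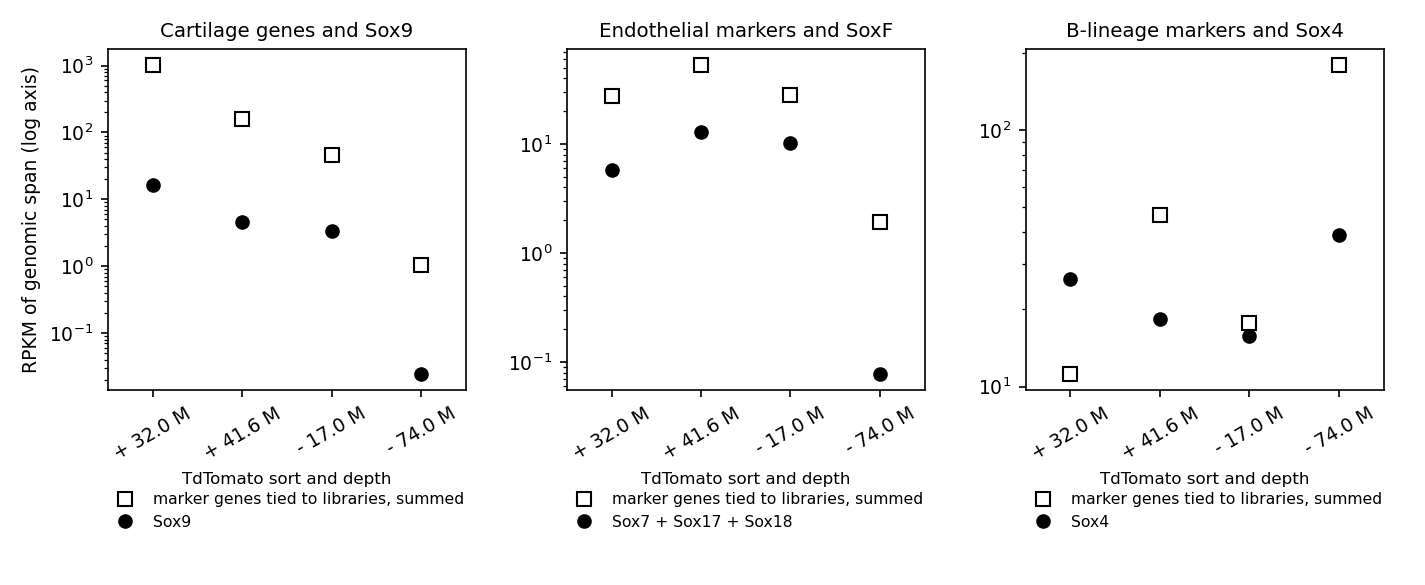
Levels in RPKM of genomic span (log axis) in each library, positive (+) or negative (-) with its depth, of the marker genes with determined values, summed (squares), and of Sox9, of Sox7, Sox17 and Sox18 summed, and of Sox4 (circles). Endothelial markers and the SoxF sum are both lowest in N74, at 1.91 and 0.0776 RPKM, where B-lineage markers and Sox4 are highest.

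The 5 genes most like Sox9 over the 4 libraries were Dlx5, Rcn3, Ctsk, P3h4 and Kera, by the root mean square difference of log2(RPKM + 0.1) after centring each gene, among 2192 genes with determined values and a mean of at least 1.67 RPKM. Dlx5, a homeobox factor of the osteoblast lineage, differed by 0.0915 and stood at 11.4, 3.28, 2.44 and 0.00316 RPKM in P32, P42, N17 and N74. Ctsk, the protease cathepsin K, differed by 0.130, and Kera, the proteoglycan keratocan, by 0.219. None of these 5 is on the cartilage list, but of that list only Chad, Comp and 3110079O15Rik were among the genes searched. The other cartilage genes had undetermined values or a lower mean, so their likeness to Sox9 was not assessed. Likeness over 4 libraries says only that the levels ran in parallel.

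Sox5 (ENSMUSG00000041540.16, chromosome 6, 143828425 to 144781977) and Sox6 (ENSMUSG00000051910.13, chromosome 7, 115470872 to 116038796) span 954 and 568 kb of genome, against 5.54 kb for Sox9. Sox5 had 569 reads in P32 and 9 in P42, and 125 and 41 reads in N17 and N74. In RPM these are 17.8 and 0.216 against 7.36 and 0.554. P32 and N17 were thus the high ones, the groups overlapped, and P32 exceeded P42 82.3-fold.

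Sox6 reads numbered 359 in P32, 171 in P42, 109 in N17 and 1316 in N74. In RPM it was at 11.2 and 4.11 in positive cells and at 6.42 and 17.8 in negative cells, so that N74 was the highest and the groups overlapped. Erythroid cells are another known site of Sox6. Of 12 erythroid genes 0 were higher and 12 lower in positive cells by the authors' difference of mean logs, with a median of -1.30. An unadjusted p below 0.05 was found for 1 of them, where the share of all genes is 0.296%. For the 7 erythroid genes with determined values the median was 0.722, 4.18, 1.99 and 10.7 RPKM in P32, P42, N17 and N74, the haemoglobin genes, such as Hba-a2 and Hbb-bs with differences of -1.12 and -1.14, not being among them. Their median difference was -1.40 with all libraries and -0.38 without N74. By their median level they were highest in N74, where Sox6 was highest, and lowest in P32, where Sox6 was second. Their part in the Sox6 level was not tested.

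The way the signal was made bears on Sox5 and Sox6 more than on the other members. The values carry an offset of 0.1 RPKM, which for Sox5 was worth 3047, 3967, 1619 and 7057 reads in P32, P42, N17 and N74. For Sox6 it was worth 964 to 4203 reads. Both genes were below the offset in 4 of 4 libraries. For Sox9 the same offset was worth 9.40 to 41.0 reads and for Sox18 3.06 to 13.4 reads. In N74, however, reads were below the offset for Sox9 (10 against 41.0), Sox18 (7 against 13.4) and Sox17 (12 against 47.5). They were also below it for Sox11 (2 against 61.5), Sox7 (0 against 52.2) and Sox10 (0 against 70.9). The N74 values that enter the differences of mean logs of these genes were thus set largely by the offset. In the authors' deposited table the difference of mean logs was 0.03 for Sox5 (p = 0.986) and -0.13 for Sox6 (p = 0.927), close to the -0.04 of a gene with no reads. Without N74, on log2(RPKM + 0.1), it was 0.02 for Sox5 and 0.03 for Sox6, whose sign thus changed. On log2(RPM + 0.1), with no length, the difference was 0.11 for Sox5 and -0.64 for Sox6. Limma gave these a standard error of 2.40 and 0.93 and an adjusted p of 0.993 and 0.829. Whether the annotated antisense genes within both loci added reads depends on strand, which is not given in the sources used here. Sox6os, antisense to Sox6, had 23 and 4 reads in positive cells and 0 and 8 in negative cells, and Sox5os3, the only one of the 5 Sox5 antisense genes with reads, had 8 in N74.

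**Figure D3:**
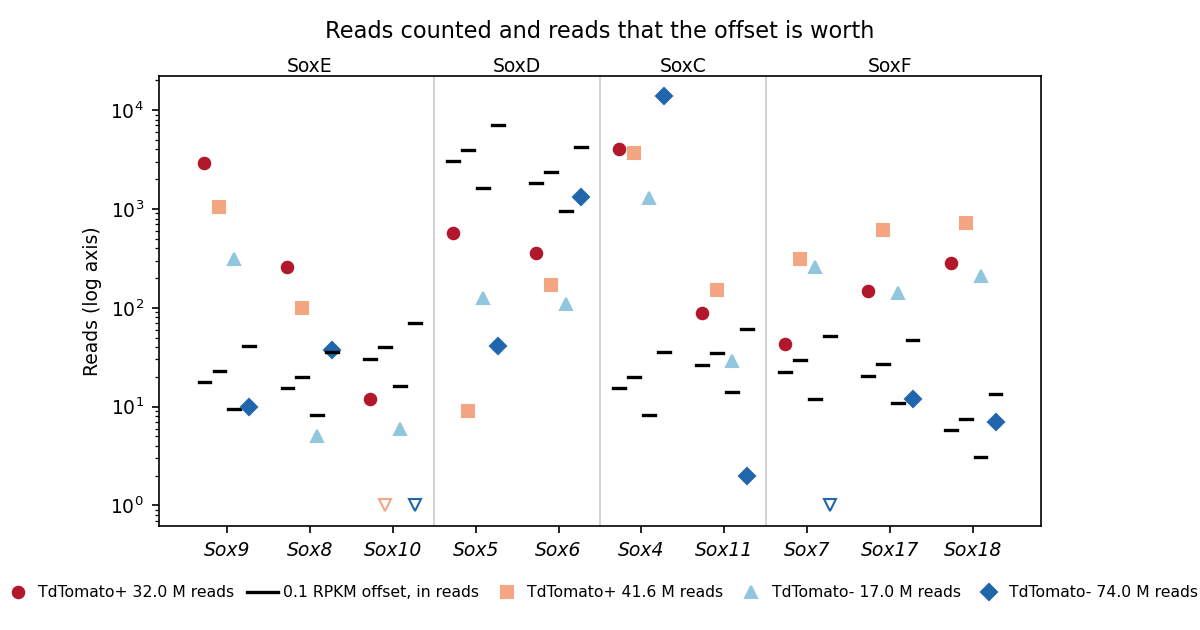
Reads counted for each Sox gene in each library (coloured symbols, log axis; open triangles drawn at 1 stand for 0 reads) and the number of reads that an offset of 0.1 RPKM is worth there (black bars). All Sox5 and Sox6 symbols lie below their bars, while in both positive libraries every other gene except Sox10 lies above them. In N74, Sox9, Sox11, Sox7, Sox17, Sox18 and Sox10 lie below their bars too, as do Sox8 and Sox10 in N17.

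The SoxF genes were detected in P32, P42 and N17 and were at or near 0 in N74. Sox18 (ENSMUSG00000046470.5, chromosome 2, 181669836 to 181671640) had 284 and 728 reads in P32 and P42 and 210 and 7 in N17 and N74. These are 4.92 and 9.69 RPKM against 6.85 and 0.0524 RPKM. The higher negative library lay between the positive ones, so the groups overlapped. The authors' difference of mean logs was 2.73 on the log2 scale (p = 0.0618), and 0.01 on log2(RPKM + 0.1) without N74.

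Sox17 (ENSMUSG00000025902.13, chromosome 1, 4490931 to 4497354) showed the same order. It was at 0.716 and 2.27 RPKM in positive cells, from 147 and 606 reads, and at 1.30 and 0.0252 RPKM in negative cells, from 142 and 12 reads. The authors' difference of mean logs was 1.69 (p = 0.237), and -0.01 without N74. Sox7 (ENSMUSG00000063060.5, chromosome 14, 63943674 to 63950732) was instead highest in N17. It was at 0.191 and 1.06 RPKM in positive cells, from 43 and 310 reads, and at 2.16 and 0 RPKM in negative cells, from 259 and 0 reads. A count of 0 in N74 allows up to 0.00574 RPKM. The authors' difference of mean logs was 0.24 (p = 0.864) for Sox7, and -1.96 without that library.

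All 3 SoxF genes and Sox11 were higher in P42 than in P32 and lowest in N74. This joint order was noticed after the values were seen; 6.32% of the 11713 genes with determined values had it. Of 16 endothelial genes 15 were higher in positive cells by the authors' difference of mean logs, with a median of 0.93 and 0 past the FDR threshold. An unadjusted p below 0.05 was found for 3 of them, where the share of all genes is 0.598%. Ramp2, a receptor-modifying protein and one of the highest, differed by 3.14 in the authors' deposited table. Cldn5, a claudin of endothelial tight junctions, was at 11.1, 21.0, 13.7 and 0 RPKM in P32, P42, N17 and N74. Plvap, a protein of endothelial fenestrae, stood at 6.04, 11.8, 3.24 and 0.0800 RPKM. The 15 endothelial genes with determined values summed to 27.5, 53.3, 28.4 and 1.91 RPKM, and 13 of them were higher in P42 than in P32, as were 4 of the 9 Sox genes and 43.1% of all determined genes. The SoxF genes summed to 5.83, 13.0, 10.3 and 0.0776 RPKM. Pecam1, which platelets and leukocytes also carry, was at 0.403 RPKM in N74, where Cdh5, a cadherin of endothelial junctions, was at 0.00977 RPKM. Of these 15 genes, 3 were higher in P32 and P42 than in N17 and N74, near the 19.4% of all determined genes. Erg, a transcription factor of endothelial and some blood cells, was highest in N74 instead, at 0.0479 RPKM. The median difference of the 15 was 0.81 with all libraries and 0.16 without N74. The part of endothelial cells in the SoxF levels was not tested.

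The 5 genes most like Sox18 were Gpihbp1, Vtn, Retnla, Des and Gm13889, among 1132 genes with determined values and a mean of at least 3.45 RPKM. Gpihbp1, which carries lipoprotein lipase on capillary endothelium, differed by 0.308 and stood at 3.40, 11.0, 5.92 and 0 RPKM in P32, P42, N17 and N74. Des, the muscle intermediate filament desmin, differed by 0.532. The 5 genes most like Sox9 differed from it by 0.219 at most. That search held 2192 genes at a lower minimum mean, so the 2 sets of differences cannot be compared directly.

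Sox4 (ENSMUSG00000076431.4, chromosome 13, 28948919 to 28953713) was the most abundant member and the most even. It had 4034 and 3679 reads in P32 and P42 and 1289 and 13816 in N17 and N74. In levels, 26.3 and 18.4 RPKM stood against 15.8 and 38.9 RPKM. N17 and N74 held the lowest and the highest value, and the authors' difference of mean logs was -0.21 (p = 0.886). On log2(RPKM + 0.1) it was 0.47 when N74 was left out and -0.82 when N17 was. Markers of B-cell precursors were highest in N74 as well. All 12 were lower in positive cells by the authors' difference of mean logs (0 higher), with a median of -1.02. An unadjusted p below 0.05 was found for 1 of them, where the share of all genes is 0.296%. Cd79a and Cd79b, the signalling chains of the B-cell receptor, were at 50.6 and 45.9 RPKM in that library and at 4.52 to 15.1 and 3.97 to 12.9 RPKM in the other 3. Igll1, a surrogate light chain of precursor B cells, was at 27.6 RPKM there and at 0.236, 6.50 and 0.746 RPKM in P32, P42 and N17. The 10 such genes with determined values summed to 11.2, 46.7, 17.7 and 180 RPKM in P32, P42, N17 and N74. Their median difference was -0.98 with all libraries and 0.67 without N74, so its sign changed. In P32 these markers were low while Sox4 was at its second-highest level. Of 12 pan-leukocyte genes, likewise, 0 were higher and 12 lower in positive cells, with a median of -1.64 and 0 at an unadjusted p below 0.05, Tyrobp and Coro1a, the highest of them, differing by -0.83 and -1.52. The 3 with determined values had a median difference of -1.72, and -1.10 without N74. Neither cell type's part in the Sox4 level was tested.

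Sox11 (ENSMUSG00000063632.6, chromosome 12, 27334264 to 27342574), the near relative of Sox4, was low. There were 88 reads in P32, 152 in P42, 29 in N17 and 2 in N74, or 0.331 and 0.440 RPKM against 0.206 and 0.00325 RPKM. P32 and P42 lay above N17 and N74, and P32, the lower of the pair, exceeded N17 1.61-fold. The Poisson interval of that positive value, 0.266 to 0.408 RPKM, overlapped the 0.138 to 0.295 RPKM of N17. The authors' difference of mean logs was 1.40 (p = 0.325), and 0.66 without N74.

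The authors' deposited table holds a second measure of difference, the ratio of the group means, and the 2 measures disagreed in sign for 4 of the 9 genes with enough reads. This is 17.0% over all genes with at least 10 reads in 2 libraries. For Sox18 the ratio was 0.954, just below 1, while the difference of mean logs was 2.73, and for Sox17 they were 0.978 and 1.69. For Sox7 they were 0.274 and 0.24, and for Sox5 0.795 and 0.03. A mean of 2 unequal libraries follows the higher one, and the authors' signal is also divided by depth a second time, which weighs N17 most. A gene with no reads therefore had a ratio of 0.764, and Sox18, Sox17 and Sox5 were above it. Mean RPKM, without the second division, was higher in positive cells for Sox18 (7.31 against 3.45) and Sox17 (1.49 against 0.664). The same held for Sox5 (0.00945 against 0.00415), while Sox7 was lower (0.623 against 1.08). Sox9 had a ratio of 3.08 and Sox8 of 5.74, so by the ratio of group means Sox8 came before Sox9, and by the difference of mean logs Sox9 came first. As group mean times span, the levels of Sox9 were 113 times that of a gene with no reads in positive cells and 28.0 times in negative cells. For Sox18 these were 71.0 and 56.8 times, for Sox4 230 and 202 times, for Sox8 12.7 and 1.69 times, and for Sox5 1.11 and 1.06 times.

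**Figure D4:**
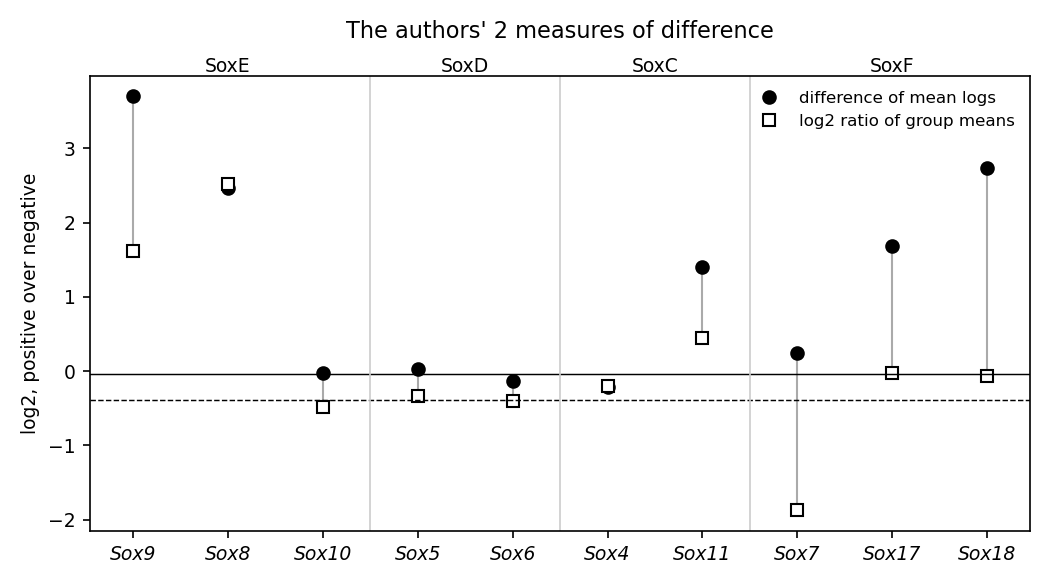
Log2 difference between TdTomato-positive and TdTomato-negative cells for each Sox gene in the authors' deposited table, as the difference of mean logs (circles) and as the log2 ratio of group means (squares), with solid and dashed lines at the values of a gene with no reads. Sox18 lies at 2.73 by the first and at -0.07 by the second, and Sox8 at 2.47 and 2.52.

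Levels of different members were compared per kilobase of annotated exon (GENCODE M21) and per M reads, which treats all reads as exonic. In positive cells the order of means was Sox4 (22.4), Sox9 (14.0), Sox18 (8.14), Sox17 (2.01), Sox8 (1.68), Sox7 (1.33), Sox5 (0.627), Sox6 (0.517), Sox11 (0.385) and Sox10 (0.0615). Between neighbours in this order the ranges of P32 and P42 were separate only from Sox18 to Sox17 and from Sox11 to Sox10, and all other neighbours overlapped. In negative cells Sox4 (27.4) was above every other member in both libraries. Below it came Sox18 (3.85), Sox7 (2.31), Sox9 (2.24), Sox17 (0.893), Sox6 (0.816), Sox5 (0.275), Sox8 (0.127), Sox11 (0.104) and Sox10 (0.0579). Per kilobase of genomic span, Sox5 and Sox6 were the 2 lowest members in positive cells, at 0.00945 and 0.0135 RPKM. Exon lengths are 14.4 kb for Sox5 and 14.8 kb for Sox6, all isoforms joined.

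The make-up of the family also differed by library, taken as the share of the reads of all 10 genes, a measure that depends on transcript length but not on depth. Sox9 made up 33.3% of 8692 reads in P32 (Wilson interval 32.3 to 34.3% at 95%). It made up 15.3% of 6792 in P42 (14.4 to 16.2%), 12.6% of 2486 in N17 (11.3 to 13.9%) and 0.0656% of 15241 in N74 (0.0356 to 0.121%). The SoxF genes together made up 5.45% of these reads in P32. They made up 24.2% (23.2 to 25.2%) in P42 and 24.6% (22.9 to 26.3%) in N17, whose intervals overlapped. Sox4 made up 46.4 to 54.2% in these 3 libraries and 90.7% (90.2 to 91.1%) in N74. By this measure P42 was closer to N17 than to P32 in Sox9 and SoxF. For SoxD it was P42 that stood apart, at 2.65%, against 10.7% in P32, 9.41% in N17 and 8.90% in N74. The summed share hides a different make-up. In N74 Sox6 made up 8.63% and Sox5 0.269%, while in N17 these were 4.38% and 5.03%, and in P32 4.13% and 6.55%.

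Of the other 10 genes of the family, only Sox12 and Sox13 had 10 reads or more in 2 libraries or more. Sox12, the remaining SoxC gene, was at 1.10 and 0.157 RPKM in positive cells and at 0.423 and 0.804 RPKM in negative cells. Sox13, the remaining SoxD gene, had 100 and 277 reads in positive cells and 147 and 223 in negative cells. Both overlapped between groups, with a p of 0.807 and 0.916 in the authors' deposited table. Sox15 had at most 13 reads and Sox21 at most 16, both in N74, and Sox1 had 3 reads in N17. Sox2, Sox3, Sox14, Sox30 and Sry had 0 reads in all 4 libraries. The median difference of the 10 was -0.05, and 0.00 without N74.

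Cofactors and regulators that work with Sox or HMG-box proteins divided almost evenly by direction. Of 24, 11 were higher and 13 lower in positive cells by the authors' difference of mean logs, 0 had an unadjusted p below 0.05, and the median was -0.06. The 17 with determined values had a median difference of 0.10, and 0.11 without N74. Ep300, a histone acetyltransferase that coactivates Sox9, was at 0.419, 0.508, 0.404 and 1.35 RPKM in P32, P42, N17 and N74. Ctnnb1, which encodes beta-catenin, and Arid5a, the highest of the list, had differences of -0.20 and -0.17 in the authors' deposited table. Wwp2, whose intron holds the cartilage microRNA miR-140, was at 0.598 and 0.609 RPKM in positive cells and at 0.475 and 0.932 RPKM in negative cells, and was the 1 cartilage list gene that was lower in positive cells. In the osteoblast list Bglap, which encodes osteocalcin, had an FDR of 0.0198 in the authors' deposited table, where Col1a1, the main bone collagen, differed by 5.28. Ly6a and Postn, the highest of the progenitor list, differed by 2.22 and 4.19. All 12 osteoblast and all 12 progenitor genes were higher in positive cells by the authors' difference of mean logs, with medians of 3.94 and 1.69. An unadjusted p below 0.05 was found for 8 and 3 of them, where the share of all genes is 0.598%. The 6 progenitor genes with determined values had a median difference of 0.83 with all libraries and -0.33 without N74. Without N74, 2 of these 6 were higher in positive cells and 4 lower. Of the 6, 1, Ctsk, was higher in P32 and P42 than in N17 and N74, a pattern found in 19.4% of all determined genes. The other progenitor genes could not be assessed without N74. The 4 osteoblast genes with determined values had a median difference of 3.09 with all libraries and 1.23 without N74.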

How the data were processed

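RNA was sequenced from 2 TdTomato-positive and 2 TdTomato-negative libraries. STAR, Partek and the mm10 build were used, per the submitters' processing notes, and their versions were not given. The authors' deposited table holds group means of a normalized signal. It also holds the authors' ratio, their difference of mean natural log values, their p-value and FDR, and the authors' signed fold, total and Akaike values, which are scores, per the file headers.

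Solving these gave exactly 1 set of 4 library values for each of 47643 genes. The 20948 genes without reads shared 1 pattern, from which the depths, an offset of 0.1 RPKM and a second division by depth and span were inferred. No header states them, and reads and read pairs could not be told apart. Of 17199 genes with at least 10 reads in 2 libraries or more, 11713 (68.1%) had every value tied to its library, by whole reads (tolerance 0.002 to 0.05) or by signs. Values of marker genes that could not be tied are not given by library; limma took the assignment in which they differ less. The table's genes held 65.2 to 85.9% of each depth. The solution and limma were tested on simulated data.

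The authors' p-value and FDR at 0.05 were the main test. Alternatives used limma 3.58.1 in R 4.3.3 on log2(RPKM + 1), for genes with at least 1 RPKM in 2 libraries, and other pseudocounts, filters, scalings and left-out libraries. Members and lists were chosen with earlier results of these data known. Named were the 10 members, other Sox genes with at least 10 reads in 2 libraries, the 2 or more highest genes of each list (by difference only where values could not be tied), those past the FDR, and the 5 genes most like Sox9 and Sox18. Other list genes and noncoding loci were named after their values were seen.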

Additional observations from a re-analysis of the deposited data

How the results depend on the processing

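Members past an adjusted threshold of 0.05 numbered 0 under each of 12 alternative tests, but not all members were tested in each. The authors' p adjusted over genes with at least 10 reads in 2 libraries and limma on log2(RPM + 0.1) took in 9 members, and limma without a filter took in 10. Limma on log2(RPKM + 1), with an offset of 0.1, after median-of-ratios scaling, without each library in turn and with a replicate block took in 5: Sox9, Sox4, Sox7, Sox17 and Sox18. Each limma fit to all 4 libraries called 0 genes of any kind, so its 0 members is no result particular to the Sox genes. The authors' p adjusted over genes with at least 10 reads in 2 libraries called 0.0581% of those genes. Which libraries share a collection is unknown, so the replicate block was fitted under both possible pairings. With P32 paired with N17, Sox9 had an unadjusted p of 0.00105 and an adjusted p of 0.109, with P32 paired with N74 these were 0.104 and 0.693, and 0 of 5 members were called in each (0 genes in all, with 1546 and 310 at an unadjusted p below 0.05). The Sox9 difference kept its sign under all 11 alternatives, at 2.22 with a pseudocount of 1, 4.67 with 0.01, 3.66 after median-of-ratios scaling and 1.35 to 6.13 without single libraries. Sox8 and Sox11 kept their sign too. For Sox9, Sox8 and Sox11, the levels in P32 and P42 each exceeded those in N17 and N74. A change of pseudocount or gene length, or leaving out a library, therefore could not reverse the sign. Only median-of-ratios scaling and the ratio of group means left it open, so the constant sign says little about robustness. The Sox7 sign changed under 4 of 11 alternatives: -0.18 with a pseudocount of 1, -1.87 as the ratio of group means, -0.71 without P42 and -1.96 without N74. Sox17 changed under 2, Sox18 under 1, Sox4 under 2, Sox5 under 2, Sox6 under 1 and Sox10, whose difference was -0.03, under 7. Of 110 alternative values, 18 moved by more than 1 SD between replicates. RPM, the ratio of group means, the undone second scaling, the block fits and the lists without N74 were chosen after seeing the data. The other assignment of library values was not run, since all 10 members were determined. For Sox10, Sox11 and the negative values of Sox8, few reads limit the comparison.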

Other observations

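Of 8 noncoding loci named after Sox genes, 5 had 0 reads in all 4 libraries. Sox2ot, a processed transcript whose annotated span (chromosome 3, 34104270 to 34682619) holds Sox2, had 39 and 64 reads in P32 and P42 and 0 in N17 and N74, where 3 reads would be 0.177 and 0.0405 RPM. Sox2 itself had 0 reads in all 4 libraries. In the authors' deposited table the difference of mean logs of Sox2ot was -0.01 on the log2 scale (p = 0.996). Over so long a span the offset of 0.1 RPKM outweighs these reads, as it does for Sox5 and Sox6. The value is thus near the -0.04 of a gene with no reads and says little about Sox2ot. How many genes share this pattern of reads was not counted.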
